A study of Homo sapiens with 2 samples.

Results

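Long intergenic noncoding RNA genes that carry a plain LINC number were taken from a table of nascent RNA reads around gene starts. Every window whose gene name was LINC followed by digits alone was a member, windows of the Y chromosome being left out, and the rule used no measured value. This gave 2078 of the 36814 windows, and 5 on the Y chromosome were left out. Another 7 names that begin with LINC but go on differently, such as LINC-PINT, did not match. In the RefSeq gene table (GRCh38.p14) 2050 members had an entry under their own or an older symbol, and 28 had none. The window held the RefSeq start of 1648 of them but not that of 402, and 7 are now listed as protein-coding.

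Reads came from 2 precision run-on sequencing (PRO-seq) libraries of K562, a human cell line established from chronic myelogenous leukaemia that carries the BCR-ABL1 fusion. PRO-seq lets RNA polymerases that are engaged on DNA add biotinylated nucleotides in permeabilised cells, so that the reads report transcription in progress. Cells of 1 library were left untreated, and those of the other had 0.1% DMSO, a drug solvent, for 1 h. Each treatment therefore had 1 library, no value has a replicate check and no p-value is given. Each window spans 6000 bases centred on an annotated gene start on hg38.

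A LINC symbol is a placeholder given to a long noncoding RNA gene that lies between protein-coding genes and has no established function. RNA polymerase II makes these transcripts, often from promoters or enhancers that also serve other genes. They are known to be produced at lower levels and in fewer cell types than messenger RNAs. Where one is studied, the question is often whether it has its own promoter or arises as the divergent transcript of a neighbour.

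The promoters below are those of the 4 members of highest read density, the 2 of highest and the 2 of lowest DMSO/untreated ratio among members with a RefSeq promoter inside the window. RefSeq (GRCh38.p14) gave a promoter of 300 bases, 250 before and 50 after the start, for 1421 members, and for 1158 of them it lay in the member's window. Capitals mark matches on either strand to the 8 motifs searched: the TATA box TATAAA, the GC box GGGCGG, the CCAAT box, the GATA factor core AGATAA, the cyclic AMP response element TGACGTCA, the stress response core TTGCATCA, the NRF1 core GCATGCGC and the ETS core CACTTCCG. They are shown because these members are described below. LINC01311, of the highest density, and LINC02252, of the lowest ratio, had no RefSeq promoter inside the window and are not among them. LINC01637 lies at chr22:20956842-20957141, plus strand.
LINC01637: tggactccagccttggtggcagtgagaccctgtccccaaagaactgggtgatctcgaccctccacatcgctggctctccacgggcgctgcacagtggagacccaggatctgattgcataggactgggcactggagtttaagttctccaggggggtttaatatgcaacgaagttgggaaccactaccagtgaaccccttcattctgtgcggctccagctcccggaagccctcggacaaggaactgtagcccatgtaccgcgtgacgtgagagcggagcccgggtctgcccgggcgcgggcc
LINC01287 lies at chr7:153412185-153412484, minus strand.
LINC01287: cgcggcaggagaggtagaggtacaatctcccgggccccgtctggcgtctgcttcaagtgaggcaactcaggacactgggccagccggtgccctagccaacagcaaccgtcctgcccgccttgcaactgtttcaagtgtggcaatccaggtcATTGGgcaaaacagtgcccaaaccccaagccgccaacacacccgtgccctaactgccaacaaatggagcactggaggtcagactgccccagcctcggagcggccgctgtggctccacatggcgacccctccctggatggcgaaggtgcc
LINC02482 lies at chr4:6673832-6674131, minus strand.
LINC02482: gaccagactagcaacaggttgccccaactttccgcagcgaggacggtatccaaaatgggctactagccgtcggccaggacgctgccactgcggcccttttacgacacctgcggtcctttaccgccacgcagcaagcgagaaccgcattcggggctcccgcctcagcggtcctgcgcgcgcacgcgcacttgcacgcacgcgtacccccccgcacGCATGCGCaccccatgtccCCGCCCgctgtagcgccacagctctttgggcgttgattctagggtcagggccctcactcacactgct
LINC01003 lies at chr7:152463874-152464173, plus strand.
LINC01003: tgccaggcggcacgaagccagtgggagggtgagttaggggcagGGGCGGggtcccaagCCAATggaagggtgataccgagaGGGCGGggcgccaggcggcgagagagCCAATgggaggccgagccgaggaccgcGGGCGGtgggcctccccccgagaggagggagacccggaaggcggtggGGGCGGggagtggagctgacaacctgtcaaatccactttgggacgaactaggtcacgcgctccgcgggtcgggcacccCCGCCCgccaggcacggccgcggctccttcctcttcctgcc
LINC01971 lies at chr17:81481417-81481716, minus strand.
LINC01971: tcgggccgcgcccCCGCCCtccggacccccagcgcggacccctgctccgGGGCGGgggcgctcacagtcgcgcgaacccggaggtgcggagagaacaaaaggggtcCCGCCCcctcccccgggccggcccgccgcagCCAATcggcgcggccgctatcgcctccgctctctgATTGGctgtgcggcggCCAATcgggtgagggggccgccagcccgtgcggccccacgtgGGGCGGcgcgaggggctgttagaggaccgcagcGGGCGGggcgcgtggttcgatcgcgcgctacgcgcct
LINC02574 lies at chr1:27662673-27662972, minus strand.
LINC02574: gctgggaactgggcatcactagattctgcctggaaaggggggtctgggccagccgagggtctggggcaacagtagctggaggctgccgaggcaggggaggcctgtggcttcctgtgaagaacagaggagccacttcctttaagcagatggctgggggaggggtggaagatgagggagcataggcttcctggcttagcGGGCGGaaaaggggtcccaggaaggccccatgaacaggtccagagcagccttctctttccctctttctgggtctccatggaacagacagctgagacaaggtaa
LINC00273 lies at chr16:34159924-34160223, minus strand.
LINC00273: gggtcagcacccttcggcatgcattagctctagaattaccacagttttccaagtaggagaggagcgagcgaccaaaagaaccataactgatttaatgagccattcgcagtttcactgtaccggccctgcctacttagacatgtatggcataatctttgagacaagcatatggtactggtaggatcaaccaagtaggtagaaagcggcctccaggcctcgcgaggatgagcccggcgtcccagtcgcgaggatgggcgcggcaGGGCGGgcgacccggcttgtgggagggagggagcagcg
LINC00885 lies at chr3:196142386-196142685, plus strand.
LINC00885: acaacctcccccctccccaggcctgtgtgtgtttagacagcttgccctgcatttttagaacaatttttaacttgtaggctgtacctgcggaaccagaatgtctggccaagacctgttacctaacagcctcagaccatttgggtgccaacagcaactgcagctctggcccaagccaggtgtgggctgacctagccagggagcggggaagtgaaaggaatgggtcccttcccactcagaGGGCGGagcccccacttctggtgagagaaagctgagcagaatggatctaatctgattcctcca

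These 8 promoters differ widely in composition. Of the densest members, LINC02482 had 31 CpG and LINC01003 28, while LINC01287 had 15 and LINC01637 16. LINC01971, of the highest ratio, had 78.0% G and C and 47 CpG, whereas LINC02574 had 4 CpG and LINC00885 had 3. LINC01003 held 5 GC boxes and 2 CCAAT boxes, and LINC01971 held 5 GC boxes and 3 CCAAT boxes. LINC02482 held 1 NRF1 core, which 3.27% of all 27305 RefSeq promoters of the same length hold, and 1 GC box. LINC01637 held none of the 8 motifs. A GC box was in 44.6% and a CCAAT box in 35.7% of all promoters. The motif matches are descriptions of letters, not of bound sites.

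Members with more reads had promoters richer in CpG. The CpG observed/expected ratio compares the CpG count with that expected from the C and G content, and promoters above 0.6 are commonly called CpG-rich. Its median was 0.18 in 196 members without a read in either library (1 kb or more of unshared bases), 0.35 in 282 members read in both libraries but below the level floor defined below, and 0.58 in the 47 members past it. The CpG-rich share was 5.10%, 26.2% and 44.7% in these 3 groups, and 86.8% in 3707 coding windows past the floor. Over all RefSeq promoters it was 48.9%. A GC box was found in 4.08%, 28.4% and 55.3% of the LINC promoters in the same order, and in 75.8% of the coding ones. The TATA box ran the other way, in 24.0%, 16.7% and 6.38% of the LINC promoters. The CCAAT box stayed between 34.8% and 36.2%. Across 1008 members density and CpG ratio had a Spearman correlation of 0.29, and density and G plus C content one of 0.36, given as descriptions, since all members share the same 2 libraries and read mapping can vary with base composition.

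**Figure D1:**
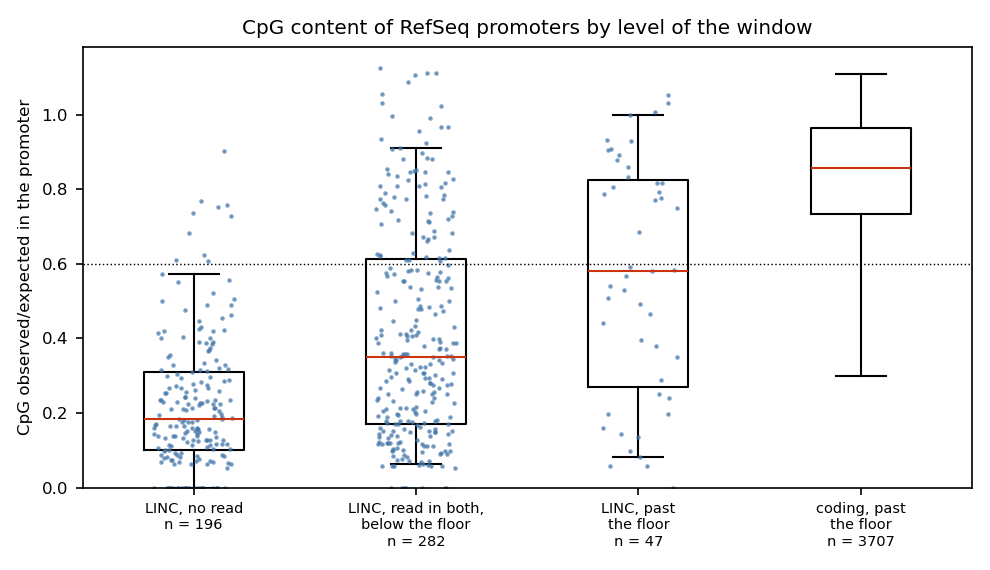
CpG observed/expected ratio of RefSeq promoters (vertical axis) for LINC windows without a read, read in both libraries but below the floor, and past the floor, and for coding windows past the floor. Boxes span the quartiles with the median in red, whiskers reach percentiles 5 and 95, dots are single promoters (not drawn for coding windows), and the dotted line is at 0.6. The median rises from 0.18 to 0.35 and 0.58 across the LINC groups and is 0.86 in the coding group.

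LINC windows as a group held few reads. The 2078 members made up 5.64% of all windows but held 8435 untreated and 29302 DMSO reads, which is 1.61% and 1.30% of the reads once windows of ribosomal RNA and mitochondrial genes are set aside. The libraries had 2136291 and 4154920 reads in all, but only 525322 (24.6%) and 2249790 (54.1%) lay outside the latter. A read was found in 652 members in the untreated library, in 1526 in the DMSO library and in 602 in both (29.0%, exact 95% interval 27.0 to 31.0), against 53.9% of coding, 48.1% of named antisense and 43.5% of clone-named windows. With the DMSO reads thinned to the untreated number outside ribosomal RNA and mitochondrial windows, a read was found in 868 members in that library (41.8%, not 73.4%) and in 466 in both. A count of 0 allows up to 3 reads at this depth, and intervals cover counting error only, since the reads carry no molecular identifiers.

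Windows share bases where gene starts lie close together, and such bases had no counts: the 1154 windows without a base of their own held 0 reads, 25 of them members. Levels are therefore given per kb of unshared bases, for the 1841 members with at least 1 kb of them. Overlap was less common here than among coding windows, since 77.5% of members shared no base with another window against 58.6% of coding windows. Strand could not be used, because shared bases were uncounted whatever the strand, so a member's reads may come from either strand of its window.

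The typical LINC window was close to empty. The median member had 0 reads per kb untreated and 0.33 with DMSO, and 90% of members had at most 1.33 and 4.33. To combine the libraries, density was computed as the mean CPM (counts scaled to library size) per kb, adjusted with TMM factors (a trimmed mean that offsets the unequal ribosomal RNA share). The median density was 0.043 CPM per kb for members, 0.12 for clone-named windows, 0.29 for named antisense windows and 0.62 for coding windows, and the upper quartiles were 0.14, 1.09, 1.94 and 4.21. Just 3.66% of members (76, exact 95% interval 2.89 to 4.56) passed a floor of 5 CPM on average and 100 reads over both libraries, against 17.9% of all windows, 25.1% of coding, 12.8% of named antisense and 10.7% of clone-named windows. Windows past the floor had similar medians in every class, 5.88 CPM per kb in members and 6.01 in coding windows, but the floor itself sets the lower end of these.

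**Figure D2:**
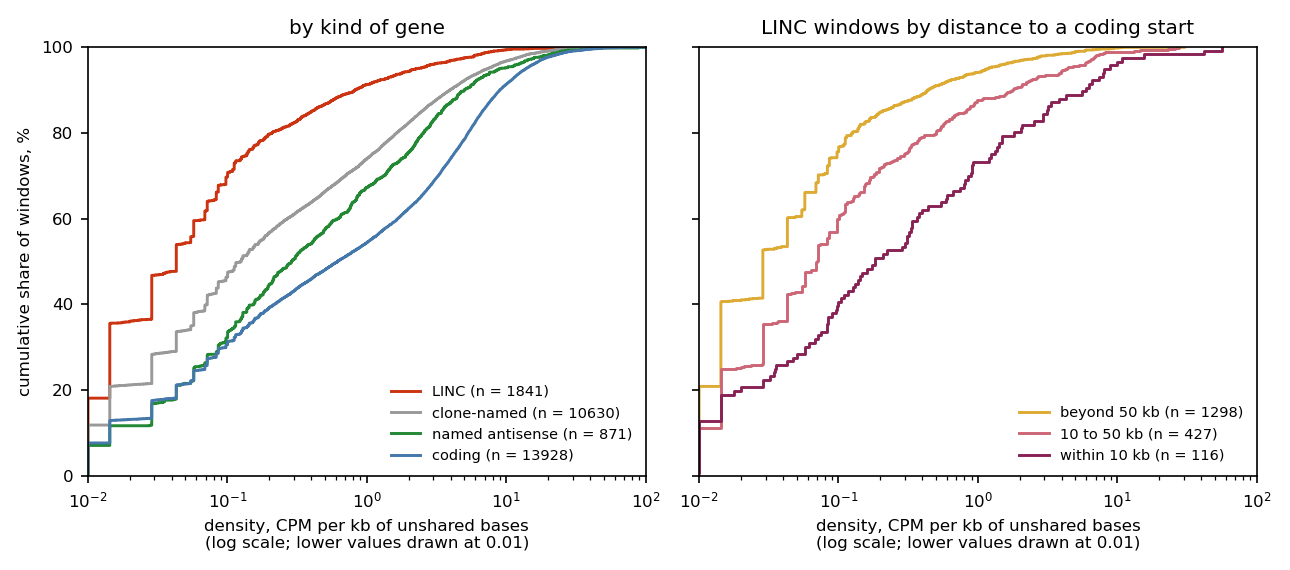
Cumulative share of windows (vertical axis, %) by density in CPM per kb of unshared bases (log axis; values under 0.01 are drawn at 0.01), for windows with 1 kb or more unshared. The left panel compares LINC, clone-named, named antisense and coding windows, whose medians are 0.043, 0.12, 0.29 and 0.62; the right panel splits LINC windows by the distance between their start and the nearest coding start, with medians of 0.18 within 10 kb, 0.070 at 10 to 50 kb and 0.029 beyond 50 kb.

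Reads were concentrated in a small number of members. The 10 members with most reads held 29.1% of all member reads without treatment and 31.4% with DMSO, and the 76 past the floor held 67.2% and 66.6%. Among those 76, reads per kb ran from 1.83 to 83.0 with a median of 8.92 untreated, and from 10.0 to 343 with a median of 27.6 with DMSO. Of their windows, 17 overlapped the body of a RefSeq coding gene and 65 held the member's own RefSeq start. Exon and intron positions were not used.

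The highest density was at LINC01311 on chromosome 22 (19168395 to 19174394), with 498 untreated reads (exact Poisson 95% interval 455 to 544) and 2060 DMSO reads (1972 to 2151), or 83.0 and 343 reads per kb. Its start lies 7344 bases from that of SLC25A1, the mitochondrial citrate carrier gene, whose window had 631 and 3061 reads. LINC01637, also on chromosome 22 (20954092 to 20960091), came next with 429 and 1283 reads, or 71.5 and 214 per kb. The nearest coding window, that of AIFM3, a member of the apoptosis-inducing factor family, had only 3 and 23 reads. The order of these 2 members was the same in both libraries, and their Poisson intervals did not overlap in the DMSO library (1214 to 1355 for LINC01637).

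Both lie in the part of chromosome 22 that ends at BCR, a segment that K562 is known to carry in extra copies together with the fusion gene. Of the 9 members on chromosome 22 at or before the BCR window, 6 were read in both libraries and 3 passed the floor (33.3%, exact 95% interval 7.49 to 70.1), the third being LINC00896 with 29 and 76 reads in 1478 unshared bases. Of the 22 members beyond it 7 were read in both and 0 passed the floor (interval up to 15.4%). The 2 intervals overlap, and the part that copy number plays was not tested. Over all windows of chromosome 22 the share past the floor was 25.1%, and it was not split at BCR here.

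Of the next 3 members by density, LINC01287 and LINC01003 lie on the long arm of chromosome 7. LINC01287 (153410986 to 153416985) had 227 and 1270 reads, or 37.8 and 212 per kb, although the nearest coding start, that of the neuronal channel subunit gene DPP6, lies 473112 bases away and its window had 0 and 8 reads. LINC01003 (152460786 to 152466785) had 161 and 1210 reads, or 26.8 and 202 per kb, and it starts head to head with KMT2C, a histone H3 lysine 4 methyltransferase gene, at 27781 bases. The KMT2C window had 101 and 808 reads. LINC01003 thus ranked below LINC01287 in the untreated library, while their DMSO intervals (1143 to 1280 and 1201 to 1342) overlapped.

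Further members of high density lay outside these 2 chromosomes. LINC02482 on chromosome 4 (6670966 to 6676965) had 249 and 973 reads, in a window that overlaps the gene body of MRFAP1L2, and LINC01764 on chromosome 19 (15832854 to 15838853) had 256 and 634, at 7647 bases from the start of UCA1, a long noncoding RNA gene first described in bladder cancer. LINC02809, head to head with the trafficking GTPase gene ARF1 at 6110 bases, had 197 and 332 reads, and ARF1 161 and 919. In LINC02809 reads per kb were 32.8 untreated and 55.3 with DMSO, so it stood seventh by the mean but well below its neighbours in rank in the DMSO library. LINC02043 had 143 and 475 reads, LINC00641, whose window overlaps the gene body of the RNA-binding protein gene HNRNPC, 117 and 479, and LINC02166 80 and 432.

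**Figure D3:**
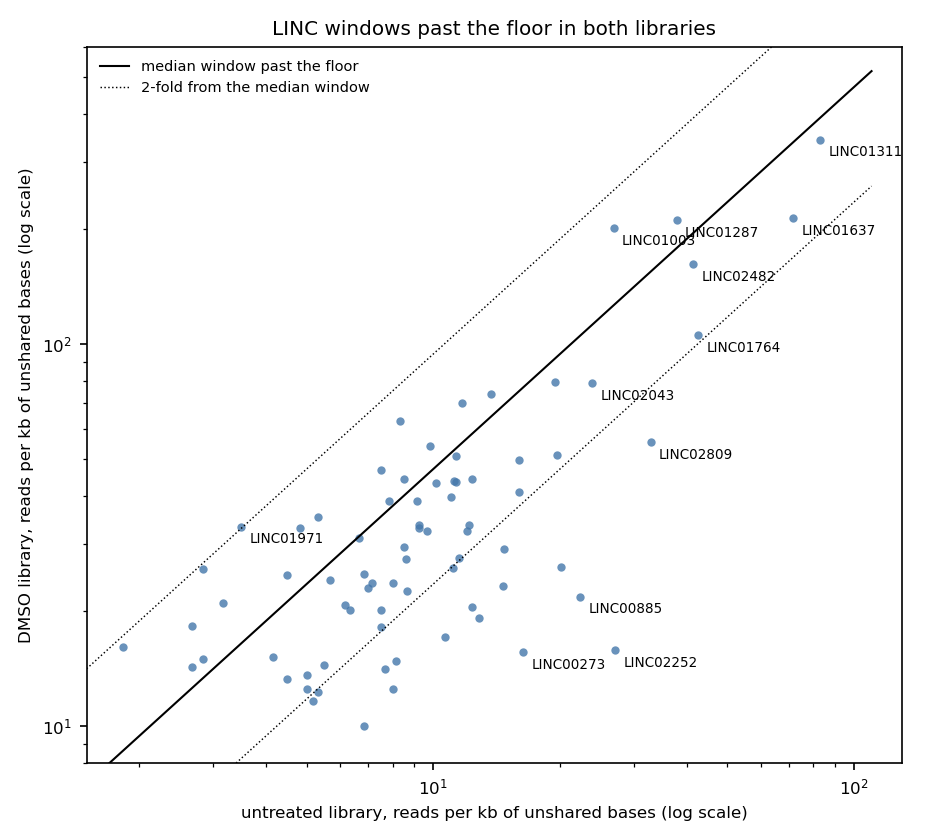
Reads per kb of unshared bases in the untreated (horizontal, log axis) and the DMSO library (vertical, log axis) for the 76 LINC windows past the floor, 1 dot per window. The solid line marks the ratio of the median window of any kind past the floor and the dotted lines lie 2-fold from it; 57 of 76 members fall below the solid line, with LINC02252, LINC00885 and LINC00273 farthest below.

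By chromosome, the share past the floor was 15.8% on chromosome 7 (6 of 38 members), 9.68% on chromosome 22 (3 of 31) and 8.33% on chromosome 16 (6 of 72). Over all windows of these chromosomes it was 21.9%, 25.1% and 24.6%, in the same order. On the X chromosome 17 of 32 members (53.1%) were read in both libraries but 0 passed the floor, against 13.9% of all windows there. Chromosome 13 had 158 members and 1 past the floor (0.63%), against 9.85% of all its windows. Intervals were wide, from 2.04 to 25.8% on chromosome 22 and from 6.02 to 31.3% on chromosome 7, and no order among chromosomes is drawn.

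**Figure D4:**
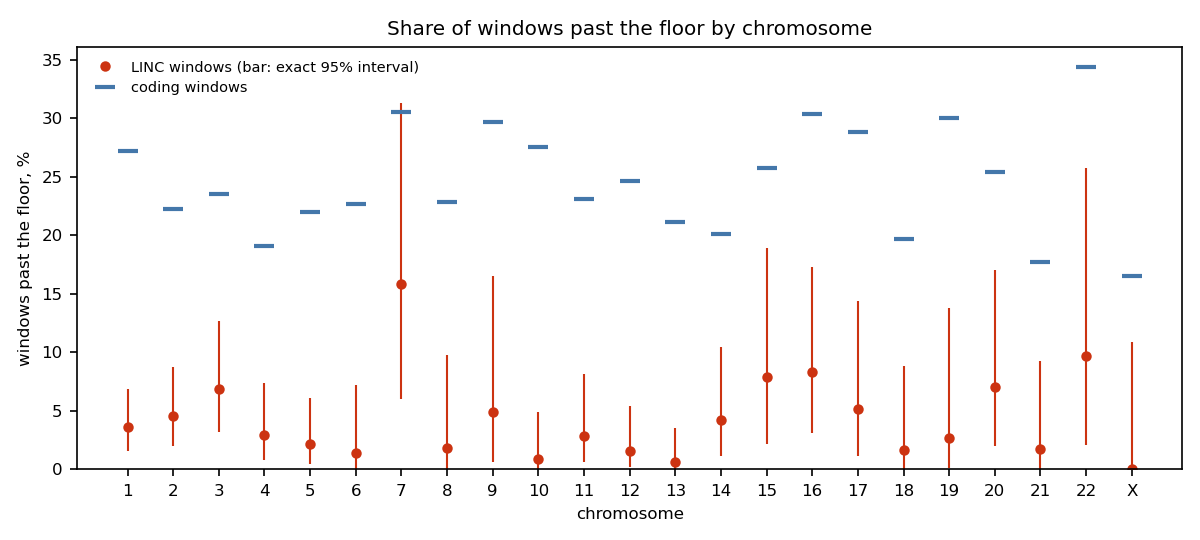
Share of windows past the floor (vertical axis, %) on each chromosome, for LINC windows (red dots, with exact 95% intervals) and coding windows (blue dashes). LINC shares run from 0 on the X chromosome to 15.8% on chromosome 7, and each lies below the coding share of its chromosome.

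Members near a coding gene start were read more densely. The median density was 0.18 CPM per kb in the 116 members within 10 kb of a coding start (order-statistic 95% interval 0.099 to 0.36), 0.070 in the 427 at 10 to 50 kb (0.057 to 0.083) and 0.029 in the 1298 beyond 50 kb, a 6.41-fold span. Read in both libraries were 41.8%, 40.4% and 23.4% of all members of these classes, and 6.19%, 6.6% and 2.33% passed the floor. Most members are remote: 1414 of 2078 lie beyond 50 kb.

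The level of the neighbour went with that of the member mainly at short range. Spearman's correlation between the density of a member and that of its nearest coding window was 0.57 within 10 kb (104 pairs), 0.29 at 10 to 50 kb (343) and 0.14 beyond 50 kb (996), as descriptions over windows of the same 2 libraries. Where the coding window within 10 kb was past the floor, the median member had 2.17 untreated and 7.17 DMSO reads per kb (19 members), and where it was below, 0 and 0.86 (97 members). Among members within 10 kb, the 62 head to head with the coding gene had a median density of 0.14, the 37 on the same strand 0.11 and the 17 facing it 1.33, with order-statistic intervals of 0.082 to 0.38, 0.035 to 0.34 and 0.22 to 5.95 that overlap. Members inside a coding gene body but farther than 10 kb from a coding start stood at 0.16 (90 members) against 0.030 for the others at that distance (1635), and since strand was not used, reads of the host gene could not be told apart from those of the member. RefSeq has since renamed 26 members as divergent transcripts (suffix DT); of these 11 were read in both libraries and 1, LINC00884, passed the floor with 50 and 377 reads.

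Highly read members were also found far from any coding start. Beyond 50 kb 33 members passed the floor, led by LINC01287, LINC00896 and LINC02252. LINC02506 on chromosome 4, at 1276961 bases from the start of PCDH7, had 43 and 142 reads. Nearer, at 13443 bases from a coding start, LINC00324 had 74 and 266 reads and has 6 transfer RNA genes in its window, and these are made by RNA polymerase III.

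A list of 30 LINC genes with a described role held 18 windows, of which 9 were read in both libraries and 1 was past the floor. That one was LINC00958, described in several cancers, with 45 and 121 reads. Of all members 29.0% were read in both libraries and 3.66% passed the floor. The listed LINC00205, LINC00467, LINC00662, LINC00941 and LINC01139 had only 18 to 616 unshared bases. No member with under 1 kb of unshared bases passed the floor. LINC00346 had 29 and 54 reads and LINC01578, also known as CHASERR and next to the chromatin remodeller gene CHD2, 14 and 33. LINC00261, a neighbour of the endoderm factor gene FOXA2, had 1 and 16. LINC00632, host of the circular RNA CDR1-AS, had 0 and 1 read in its own window.

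Solvent-treated cells usually serve as the baseline for drug treatments, and setting them beside untreated cells here compares 2 libraries rather than 2 conditions. Ratios were scaled with TMM and are given relative to the median of the 6591 windows of any kind past the floor, which stood at 0.31 (log2) under TMM and at 1.27 under library totals. In bulk libraries fewer cells of a kind and less RNA per cell cannot be told apart. Members past the floor had a median of 48.5 untreated and 143.5 DMSO reads. Their median log2 ratio was -0.50 (order-statistic 95% interval -0.77 to -0.29), and 19 of 76 lay above the median window.

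At least 2-fold lower with DMSO were 17 of the 76 members (22.4%), against 7.97% of all windows past the floor, and at least 2-fold higher was 1 (1.32%), against 7.04%. Exact intervals lay wholly past 2-fold lower for 11 members, against 2.78% of all windows, and wholly past 2-fold higher for 0, against 1.41%. The interval held the median window for 32 of the 76. Low ratios were also common in other noncoding classes: 19.0% of clone-named and 14.4% of named antisense windows past the floor were at least 2-fold lower, against 3.99% of coding windows. Ratios also moved with read number. In the lowest of 3 classes by read number 13 of 39 members and 12.2% of all other windows were 2-fold lower. In the middle class these were 3 of 26 members (11.5%) and 5.67% of the others, and in the highest 1 of 11 (9.09%) and 4.64%. From the lowest class to the highest, the shares were 23.5%, 14.8% and 15.3% of clone-named windows. They were 17.5%, 15.6% and 5.71% of named antisense windows, so members stood above both of these kinds only in the lowest class. The part of read number in the members' shift was not tested.

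Without centring on the median window the split was 3 higher and 13 lower on the TMM scale, and 28 higher and 2 lower with library totals, so the direction for the members holds only relative to other windows. With any read in place of the floor their median was 0.48, on the other side of the median window.

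LINC02252 had the lowest ratio. Its window on chromosome 15 (34668096 to 34674095), which does not hold the gene's RefSeq start, had 162 untreated reads (interval 138 to 189) and 95 DMSO reads (76.9 to 116), or 27.0 and 15.8 reads per kb, a log2 ratio of -3.00 (counting interval -3.39 to -2.63). Of the 15 densest members, LINC02252 and LINC00885 had fewer reads in the DMSO library, although it was the deeper one. LINC00885 on chromosome 3, 60429 bases from the start of the transferrin receptor gene TFRC, had 134 and 131 reads (-2.26, interval -2.63 to -1.91). TFRC itself had 432 and 1179 reads and stood at -0.79.

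LINC00273 on chromosome 16 had 98 and 94 reads (-2.29, interval -2.72 to -1.87). Its window holds RNA5-8SP2, a ribosomal RNA pseudogene, and it was the only member with one. The 4 ribosomal RNA windows, which took 71.5% of reads without treatment and 42.2% with DMSO, stood at -2.04, inside the interval of LINC00273. Whether its reads come from ribosomal RNA was not tested; without this member 16 of 75 were at least 2-fold lower.

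The other low ratios were at members of different surroundings, and the windows of LINC01033, LINC01977 and LINC01988 do not hold the RefSeq start either. Past the floor, 5 of 10 windows without the RefSeq start were at least 2-fold lower (median -1.23), against 12 of 65 with it (median -0.44), a difference that was not tested. LINC01033 stood at -1.85 with 60 and 78 reads in 2981 unshared bases. Its window overlaps the gene body of ARL15, an ADP-ribosylation factor-like gene that stood at -0.49. LINC01355 stood at -1.68, LINC01977 at -1.65, LINC01988 at -1.59 and LINC00638, now named VESTAR, at -1.56. The coding windows nearest to LINC01355 and LINC01988, those of the RNA-binding protein gene HNRNPR and of ZNF445, a zinc finger gene of imprinting control, stood at 0.61 and 0.22. LINC02809 stood at -1.48 and its neighbour ARF1 at 0.27. These members stood lower than their coding neighbours by more than 1 on the log2 scale, in the same libraries. They are set out here for their low ratios, so neighbours not chosen that way were likely to stand higher.

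At the other end LINC01971 on chromosome 17 had 21 and 200 reads (1.01, interval 0.36 to 1.74), and it was the 1 member past 2-fold higher. LINC02574 had 17 and 155 reads (0.94, interval 0.23 to 1.77), and its nearest coding start is that of IFI6, an interferon-induced gene without a read in its window. LINC01963 had 11 and 97 reads (0.89), with an interval that reaches just below 0. LINC00884 and LINC01003 both stood at 0.67, and KMT2C, opposite LINC01003, at 0.76. ATP13A3, whose gene body overlaps the LINC00884 window, stood on the other side of the median window, at -1.44, with only 10 and 17 reads. LINC02788, LINC02021 and LINC02018 stood at 0.54, 0.53 and 0.49 with intervals that include 0.

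**Figure D5:**
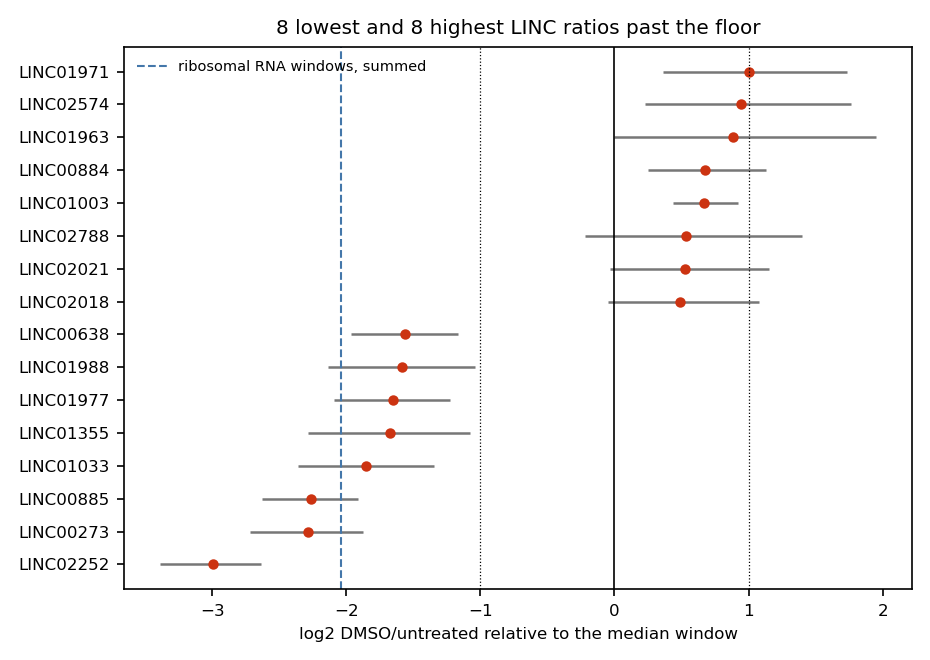
Log2 DMSO/untreated ratio relative to the median window (horizontal axis) for the 8 lowest and the 8 highest LINC windows past the floor; bars are exact 95% intervals for counting error only. Dotted lines mark 2-fold and the dashed line marks the summed ribosomal RNA windows at -2.04; the lowest is LINC02252 at -3.00 and the highest LINC01971 at 1.01.

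Some members were read in 1 library only. The DMSO library alone had reads in 924 members, with a median of 2 reads, and the untreated library alone in 50 with at most 5 reads. Of 206 members with 20 or more DMSO reads 5 (2.43%) had 0 untreated reads, against 2.5% of 10919 other windows. LINC01053 had 0 and 53 reads, or 3.75-fold higher with DMSO relative to the median window when 3 reads stand in for the 0, in a window that shares bases with that of AMER2, a WNT pathway gene. LINC00599, now named MIR124-1HG and host of the brain microRNA miR-124, had 0 and 42 (2.97-fold), and LINC02395 0 and 34 (2.40-fold). The LINC02395 window overlaps the gene body of FAIM2, a neuronal apoptosis inhibitor gene, and that of LINC01053 the gene body of AMER2. Since strand was not used, reads of these coding genes could not be told apart from those of the members. The exact lower limits of these log2 ratios were 1.56, 1.21 and 0.89, and none of the 3 windows holds the RefSeq start of its gene. The other 2, chosen after their values were seen, were LINC01106 with 33 and LINC01123 with 27 DMSO reads, whose nearest coding starts are those of LIMS4 and LIMS3.

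Of the markers of other cell types, the 5 neural markers (GFAP, NTRK2, MT3, SNAP25 and RBFOX3) had 1 untreated and 846 DMSO reads in sum, 4 of them with 0 untreated reads. Most of these DMSO reads were in GFAP (514), MT3 (188) and NTRK2 (119), while SNAP25 had 17 and RBFOX3 8. The 13 markers of lymphoid, monocytic, epithelial, fibroblast and hepatocyte cells had 66 and 274, and 8 of them had 0 untreated reads. The part of such RNA in the DMSO reads of LINC01053, LINC00599 and LINC02395 was not tested. Of the 8 K562 markers 6 passed the floor, among them TFRC and the erythroid transcription factor gene GATA1 (79 and 304 reads).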

How the data were processed

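Counts were deposited by the authors as raw reads per window of 6000 bases in 2 libraries; alignment with Bowtie2 2.3.5 and counting with featureCounts 2.0.1 on hg38 are given per the submitters' processing notes. The deposited TPM equal CPM in all 36814 windows (tolerance 1e-06) and were not used further. From the counts, unshared bases were found for each window, and TMM factors were computed with edgeR 4.0.16 in R 4.3.3 (3.81 DMSO reads per untreated read at equal level). Log2 ratios used a prior of 0.5 reads, and 95% intervals are exact Poisson or Clopper-Pearson. Coding windows are those whose symbol or older symbol is protein-coding in RefSeq GRCh38.p14; antisense names end in AS and a number, and clone names are accession-like. With 1 library per treatment no test was made. The procedure was tested on simulated data. Alternatives were the scaling (library totals, DESeq2 1.42.0), the floor, the prior, thinning, overlap, minimum length, distance classes and fold threshold.

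Named members were the 15 of highest density, the 8 windows past the floor at either end of the ratios, the 3 with most reads in 1 library only, the 3 densest per distance class, the 2 densest on each of 6 chromosomes, and listed genes of described role past the floor; others in that list and members that illustrate a group are named as examples. LINC00663 (10 and 55 reads) also met this rule. Members and lists were chosen with earlier results of these data known. Nothing states whether the cultures were separate.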

Additional observations from a re-analysis of the deposited data

How the results depend on the processing

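No paired analysis was possible because there was a single library on each side, and none could be left out. The cause of the differences was not tested, except that a changed floor or depth alters the number of windows compared. The 76 members past the floor became 240 with a floor of 1 CPM, 11 with one of 20 CPM (read minimum scaled alike) and 34 with the DMSO library thinned. The median density (0.043) was 0.059 with library totals and 0.057 after thinning. Density near over far from a coding start stayed between 3.90 and 9.90; after thinning it has no value, since the far median is 0. The median ratio (-0.50) was 0.48 with any read in either library, the one reversal, and -0.50 to -0.32 otherwise.

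Members 2-fold lower (17) numbered 57 at 1 CPM, 2 at 20 CPM, 368 with any read, 8 after thinning, 33 at 1.5-fold and 2 with library totals not centred. Members 2-fold higher (1) numbered 16, 0, 559, 0 and 5 under the first 5 of these, 0 with a prior of 2 reads, 28 with library totals not centred and 3 on the TMM scale not centred. The share of members 2-fold lower stayed above that of all windows at each floor above any read (23.8% against 12.2% at 1 CPM, 18.2% against 6.21% at 20 CPM) and after thinning (23.5% against 8.17%). With any read this no longer held: 23.4% of members against 25.2% of all windows were 2-fold lower, and 35.5% against 27.7% were 2-fold higher. At 1.5-fold 43.4% of members against 19.6% of all windows were lower. The uncentred scales and leaving out LINC00273 were chosen after the data were seen. Of 51 alternatives 31 stayed within 1.5 times the reported count or, for medians and their ratio, inside the reported value's 95% interval. Single members are limited by depth.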

Other observations

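LINC numbers are given out in order as genes are named, and the share past the floor went from 5.88% of 187 members with the lowest numbers over 4.72%, 4.10% and 3.49% to 2.76% of 833 with the highest. Exact intervals of neighbouring classes overlap.

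Where a member shares part of its window with a coding window, the unshared bases of the 2 could differ widely. LINC02166 had 80 and 432 reads in 5833 unshared bases and CDK10, a cyclin-dependent kinase gene, 6 and 15 in as many. LINC00476 had 56 and 336 reads in 4786 bases and ERCC6L2, a DNA repair helicase gene, 11 and 26. The windows of both members overlap the body of the coding gene named beside them. Since strand was not used, reads of that gene could not be told apart from those of the member. Both are among the 15 densest members, so their neighbours were likely to stand lower.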
